A study of Mus musculus with 9 samples.

Results

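Cytosolic nucleic acid sensors were examined in renal tubular epithelial cells cultured from the kidneys of C57BL/6 mice. The set was a list of 10 genes, given by name with earlier results of these data known: Ddx58, Ifih1, Dhx58, Mavs, Tmem173, Mb21d1, Zbp1, Eif2ak2, Trex1 and Adar. Of these, 9 have a row in the table of 31167 genes, and Trex1 is not analysed here. RNA was sequenced from 3 groups with 3 libraries each. Sham cells are described as untreated, but the labels give all samples the same treatment text, so whether Sham cells met the transfection reagent is not clear. H/R cells were kept at 1.0% oxygen in medium without glucose for 6 h and were then reoxygenated in complete medium for 18 h, a culture model of ischemia and reperfusion. EGR1OV cells received a plasmid that drives the transcription factor Egr1 from a CMV promoter, carried in with the reagent EndoFectin Max. No group that received an empty plasmid is among the 9 libraries, so an effect of Egr1 and an effect of the transfected DNA itself cannot be told apart. Animal age is not given in the sources used here, nor is it stated whether the 3 libraries of a group came from separate cultures or animals, so p-values measure the spread between these libraries, which may be technical.

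Cells carry proteins that detect DNA or double-stranded RNA in the cytosol. RIG-I (encoded by Ddx58) and MDA5 (Ifih1) bind RNA and signal through the mitochondrial adaptor MAVS, while cGAS (Mb21d1) binds DNA and makes a cyclic dinucleotide that is read by STING (Tmem173). Both routes lead through the kinase TBK1 to type I interferon, and many of the sensors are themselves interferon-stimulated genes. Mitochondrial DNA released into the cytosol can act through cGAS and STING in the injured kidney tubule.

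The labels were checked first. Egr1 was at 6.20, 6.91 and 6.09 FPKM (fragments per exon length, relative to all fragments of the library) in the Sham libraries. The H/R libraries held 8.57, 7.59 and 7.48 FPKM and the EGR1OV libraries 45.7, 42.2 and 40.1 FPKM. Library depth, recovered from the FPKM steps, was 16183617 to 18384022 reads. Of the 15 tubular epithelial markers in the table, 10 had a mean of at least 1 FPKM, with Pax8 at 12.8 to 13.4 FPKM in Sham. Umod was at 0 in every library, and Slc34a1, a proximal tubule phosphate transporter, was at no more than 0.0362 FPKM. The tubular list summed to 2010 to 2050 FPKM in Sham, while H/R libraries had 1870 to 1950 and EGR1OV libraries 1310 to 1420. Leukocyte markers summed to 154 to 160 FPKM in Sham, while H/R libraries had 130 to 140 and EGR1OV libraries 28.1 to 33.4, with Lyz2 at 55.8 to 58.6 FPKM in Sham and 5.02 to 6.13 in EGR1OV. All 9 of the leukocyte markers tested were called lower in EGR1OV. Mitochondrial transcripts took up 6.12% to 6.26% of all FPKM in Sham libraries, 5.91% to 6.20% in H/R libraries and 3.71% to 4.14% in EGR1OV libraries. These are bulk samples, so fewer cells of a type and less RNA per cell cannot be told apart, and the part of these shifts in the results below was not tested.

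Stretches at the starts of 4 sensor genes are shown because 3 of them hold the core of the interferon-stimulated response element (ISRE), the sequence bound by IRF and ISGF3 factors, and the last, in Adar, a looser form of it only. RefSeq windows of 250 bases before to 50 bases after a gene start were at hand for 6 of the 9 genes, in 8 windows, of which Adar has 3. The first search covered only the 250 bases before the start and used the ISRE core GAAANNGAAA, the GAS core TTCNNNGAA and the Egr site GCGNGGGCG, on both strands. It found the ISRE core in none of the 6 genes, the Egr site in none, and the GAS core in Eif2ak2 alone. After that result was seen, the window was widened to the full 300 bases and 3 looser ISRE-like patterns were added (GAAANNGAA, GAAANGAAA and GGAAANNGA), which can overlap the ISRE core. In all, 6 patterns were searched in 2 window lengths, so the matches below come from a search that was widened until matches were seen, and they are given as a description only.

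In the full window the ISRE core was found in 3 of the 6 genes (Ddx58, Ifih1 and Eif2ak2), and in 3.44% of all 32851 windows. A gene counts if any of its windows matched, so Adar had 3 chances, while the percentages are of single windows. In the 250 bases before the start it was in 0 of 6 genes, and in 2.98% of all windows. GAAANNGAA was found in 4 of 6 genes in the full window (Adar besides the other 3; 8.56% of all windows) and in 2 of 6 before the start (Adar and Ifih1; 7.13%). GAAANGAAA was found in Adar and Ddx58 in the full window (3.17% of all windows) and in Ddx58 alone before the start (2.68%). GGAAANNGA was found in 4 of 6 genes in the full window (8.27%) and in 2 of 6 before the start (7.03%). The GAS core was in 2 of 6 genes in the full window (8.30%) and in 1 of 6 before the start (7.02%), and the Egr site was in 0 of 6 in both (5.55% and 4.70%). Neither Mavs nor Mb21d1 held any of the 6 patterns in these windows. The stretches are printed on the strand of the gene in GRCm38.p6, with the match in capitals, and the first transcribed base is counted as 1.
Ddx58, minus strand, chr4:40239804-40239833, ISRE core on the opposite strand from base 3 to base 12: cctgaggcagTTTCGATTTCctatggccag
Ifih1, minus strand, chr2:62646206-62646235, ISRE core from base 33 to base 42: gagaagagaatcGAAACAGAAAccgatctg
Eif2ak2, minus strand, chr17:78882535-78882564, ISRE core from base 19 to base 28: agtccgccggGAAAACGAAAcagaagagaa
Adar, plus strand, chr3:89730738-89730767, GAAANNGAA from base 34 to base 42: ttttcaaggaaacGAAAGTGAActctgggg
All 4 matches lie just after a RefSeq start, within the transcribed part. The Adar match is in only 1 of its 3 windows. That window has its start at 89730718, inside the gene, and not at 89715022, where the gene begins.

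After Egr1 overexpression the RNA of 7 of the 9 sensors rose, from 2.30 times the Sham mean for Mb21d1 to 142 times for Zbp1, while the adaptors Mavs and Tmem173 did not pass the call. After H/R none of the 9 passed it. A gene was called at a Benjamini-Hochberg adjusted p under 0.05 (limma, over the 13985 genes that averaged 0.5 FPKM or more) with a change of at least 1.3-fold in EGR1OV, or 1.2-fold in H/R, on the scale of log2(FPKM + 1). On this rule 9.87% of all genes tested were called higher in EGR1OV than in Sham and 6.51% lower. In H/R the shares of all genes were only 1.60% higher and 2.65% lower, so none of 9 lies near these shares. All 9 sensors passed the filter on low values, but Dhx58 and Zbp1 passed it only through their EGR1OV libraries, so their calls are no independent support. The median log2 change over the 9 sensors, Dhx58 and Zbp1 included, was 2.15, against 0.017 over all genes tested. In all 9 every EGR1OV library was above every Sham library, which held for 31.0% of genes tested. For Dhx58 and Zbp1 this separation carries no weight, since they passed the filter only through EGR1OV. With 3 against 3 libraries an exact two-sided permutation test of a single gene cannot go below p = 0.1, the value each sensor had.

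**Figure D1:**
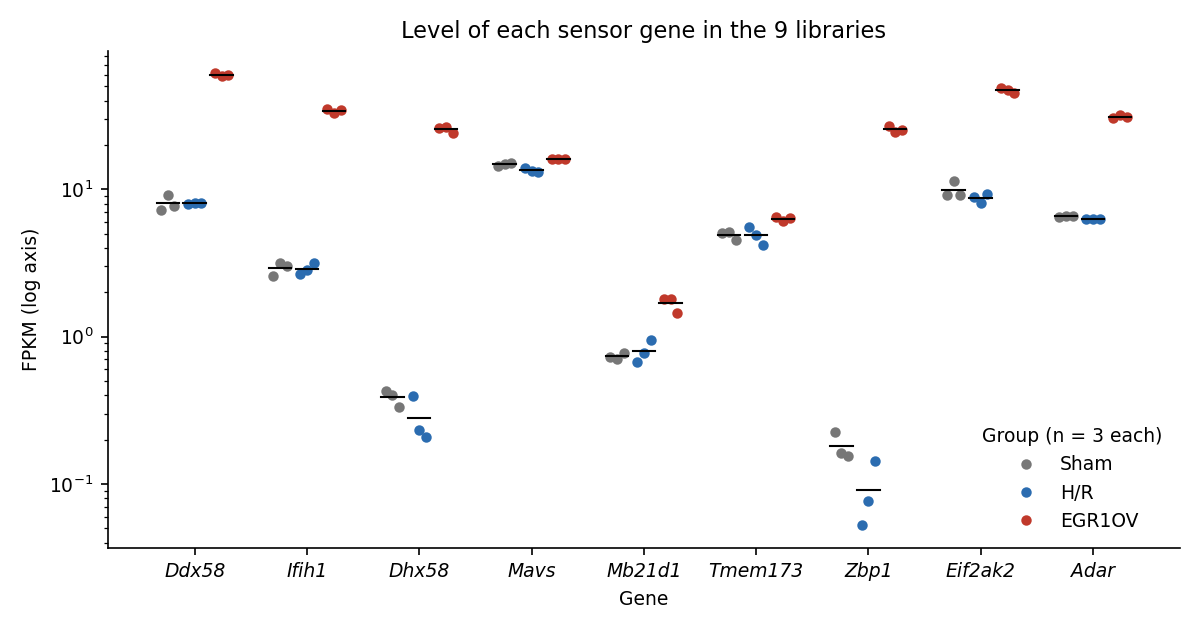
FPKM of the 9 sensor genes on a log axis. Each point is a library, coloured by group, and each black line is the mean of 3 libraries. The EGR1OV points lie above the Sham points for every gene, by little for Mavs (16.0 against 14.8 FPKM) and by most for Zbp1 (25.7 against 0.18 FPKM).

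Among the RNA sensors, Ddx58 (ENSMUSG00000040296, chromosome 4 from 40203773 to 40239828), whose product RIG-I recognises short RNA with a 5′ triphosphate, was at 7.29, 9.14 and 7.66 FPKM in Sham and at 61.2, 58.6 and 59.2 FPKM in EGR1OV. The groups lay far apart, and the log2 change was 2.75 ± 0.0649 (SE, n = 3 per group; limma adjusted p = 1.14e-09). Ifih1 (ENSMUSG00000026896, chromosome 2 from 62595798 to 62646255) encodes MDA5, which binds long double-stranded RNA. It was at 2.58, 3.16 and 3.03 FPKM in Sham and at 35, 33.1 and 34.6 FPKM in EGR1OV. Its log2 change was 3.17 ± 0.0667 (limma adjusted p = 4.93e-10). Dhx58 (ENSMUSG00000017830, chromosome 11 from 100694884 to 100704271) encodes LGP2, a relative of both that lacks the signalling domains and modulates them. Its level was 0.427, 0.403 and 0.333 FPKM in Sham, resting on 18 to 23 reads, and 26.2, 26.4 and 24.1 FPKM in EGR1OV, on 1328 to 1424 reads. The log2 change was 4.26 ± 0.0689 (limma adjusted p = 1.02e-10), and 6.01 with limma voom on the recovered reads.

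The 3 RIG-I-like receptors did not move by equal factors. The ratio of Dhx58 to Ddx58, on the FPKM scale, was 0.0488 ± 0.00857 (SD, n = 3) in Sham and 0.428 ± 0.0214 in EGR1OV. The ratio of Ifih1 to Ddx58 was 0.365 ± 0.0267 in Sham and 0.574 ± 0.0105 in EGR1OV. In both ratios the groups did not overlap.

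Mavs (ENSMUSG00000037523, chromosome 2 from 131234063 to 131248025), the adaptor both receptors signal through, was at 14.3, 14.9 and 15.1 FPKM in Sham and at 16.0 FPKM in each EGR1OV library. The groups did not overlap, but the log2 change was 0.11 (95% confidence interval 0.03 to 0.19; limma adjusted p = 0.025), under the 1.3-fold threshold. With quantile normalization the change was 0.00 (limma adjusted p = 0.995), so this small difference rests on the scaling. The ratio of Ddx58 to Mavs was 0.544 ± 0.06 (SD, n = 3) in Sham and 3.73 ± 0.0854 in EGR1OV, and that of Ifih1 to Mavs was 0.198 ± 0.0157 and 2.14 ± 0.0674.

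The DNA sensing pair moved less. Mb21d1 (ENSMUSG00000032344, chromosome 9 from 78430526 to 78443237), which encodes cGAS, was at 0.722, 0.709 and 0.778 FPKM in Sham, on 49 to 53 reads, and at 1.81, 1.81 and 1.45 FPKM in EGR1OV, on 101 to 124 reads. It rose by 0.63 ± 0.0832 on the log2(FPKM + 1) scale (limma adjusted p = 0.00023), a scale that understates the change of a gene this low, and limma voom on the recovered reads gave 1.18. Tmem173 (ENSMUSG00000024349, chromosome 18 from 35733678 to 35740554), which encodes STING, was at 5.05, 5.11 and 4.5 FPKM in Sham and at 6.46, 6.09 and 6.40 FPKM in EGR1OV. The groups lay apart, with a log2 change of 0.32 (95% confidence interval 0.13 to 0.50; limma adjusted p = 0.0111) that was under the 1.3-fold threshold.

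Zbp1 (ENSMUSG00000027514, chromosome 2 from 173206612 to 173218923) encodes a sensor of Z-form nucleic acid that can start necroptosis, and it had the largest change of the 9. It was at 0.224, 0.163 and 0.154 FPKM in Sham, on 9 to 13 reads, and at 27.0, 24.5 and 25.4 FPKM in EGR1OV, on 1415 to 1583 reads. The log2 change was 4.5 ± 0.059 (SE, n = 3 per group; limma adjusted p = 3.88e-11), and 7.11 with limma voom on the recovered reads. Eif2ak2 (ENSMUSG00000024079, chromosome 17 from 78852564 to 78882573) encodes PKR, which halts translation when it binds double-stranded RNA. Its level was 9.09, 11.4 and 9.17 FPKM in Sham and 48.8, 47.3 and 44.7 FPKM in EGR1OV, a log2 change of 2.15 ± 0.0819 (limma adjusted p = 4.02e-08).

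Adar (ENSMUSG00000027951, chromosome 3 from 89715022 to 89753446) encodes ADAR1, which edits adenosine to inosine in double-stranded RNA and so keeps self RNA from being sensed. It was at 6.49, 6.62 and 6.54 FPKM in Sham and at 30.3, 31.8 and 30.7 FPKM in EGR1OV, a log2 change of 2.08 ± 0.0303 (limma adjusted p = 5.99e-11). The interferon-inducible long isoform and the constitutive short isoform of ADAR1 are summed in these gene-level values. The ratio of Adar to Eif2ak2 was 0.670 ± 0.0758 (SD, n = 3) in Sham and 0.660 ± 0.0348 in EGR1OV, a difference smaller than the spread between libraries. Chrnb2 overlaps 16.8% of the exon bases of Adar on the opposite strand, and whether reads were counted by strand is not given in the sources used here. Chrnb2 was at no more than 0.34 FPKM in any library.

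The order of the sensors by level, in FPKM and so per length, differed between groups. In Sham it ran from Mavs (14.8 ± 0.447, SD, n = 3) through Eif2ak2 (9.87 ± 1.29), Ddx58 (8.03 ± 0.983), Adar (6.55 ± 0.0666), Tmem173 (4.88 ± 0.335), Ifih1 (2.92 ± 0.306), Mb21d1 (0.736 ± 0.0367) and Dhx58 (0.388 ± 0.0489) to Zbp1 (0.18 ± 0.038). Eif2ak2 and Ddx58 overlapped, and the other neighbours did not. The order in H/R was the same, with the same overlap. In EGR1OV it ran from Ddx58 (59.7 ± 1.35) through Eif2ak2 (46.9 ± 2.1), Ifih1 (34.2 ± 1.04), Adar (30.9 ± 0.8), Zbp1 (25.7 ± 1.25), Dhx58 (25.6 ± 1.26), Mavs (16.0 ± 0.0267) and Tmem173 (6.32 ± 0.201) to Mb21d1 (1.69 ± 0.205), and only Zbp1 and Dhx58 overlapped. The 9 genes summed to 48.3 ± 2.89 FPKM in Sham, 45.6 ± 0.923 FPKM after H/R and 247 ± 5.28 FPKM after overexpression. Mavs and Tmem173 together held 40.7% ± 1.65 of that sum in Sham and 9.04% ± 0.172 in EGR1OV.

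H/R was compared with Sham to ask whether the injury model moved the same genes. None of the 9 sensors was called, where 1.60% of all genes tested were called higher and 2.65% lower, and 1 sensor (Mavs) had an unadjusted limma p under 0.05. Mavs was at 14.0, 13.4 and 13.1 FPKM in H/R, each below every Sham library, with a log2 change of -0.12 (95% confidence interval -0.19 to -0.04; limma adjusted p = 0.0562). Adar, at 6.32, 6.28 and 6.32 FPKM, and Zbp1 were also below Sham in every library. For Zbp1 the highest H/R library and the lowest Sham library both held 9 reads, so that separation rests on library depth alone. That makes 3 of 9 sensors, where 21.8% of all genes tested lay entirely below Sham, and 0 of 9 lay entirely above, where 11.8% of genes did. The other 6 overlapped with Sham.

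The intervals bound the difference between these H/R and Sham libraries, at 18 h of reoxygenation only. They rest on a spread between libraries that may be technical. For Ddx58, at 7.98, 8.08 and 8.10 FPKM in H/R, the 95% confidence interval of the log2 change was -0.14 to 0.16. For Ifih1, at 2.65, 2.85 and 3.16 FPKM, it was -0.16 to 0.14. Mb21d1, at 0.674, 0.778 and 0.943 FPKM, had an interval of -0.14 to 0.24 on the log2(FPKM + 1) scale, which is too narrow as a bound on fold for a gene this low (limma voom on the recovered reads gave 0.11 ± 0.191, SE). The interval of Tmem173, at 5.58, 4.89 and 4.19 FPKM, was -0.19 to 0.18. Eif2ak2, at 8.80, 8.01 and 9.34 FPKM, had an interval of -0.34 to 0.03. Dhx58 and Zbp1 rested on 12 to 21 and on 3 to 9 reads per H/R library, so changes of their levels after H/R were poorly resolved at this depth. The Zbp1 change of -0.11 became -1 with limma voom on the recovered reads (limma adjusted p = 0.155), and the Dhx58 change of -0.12 became -0.53 (limma adjusted p = 0.295).

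**Figure D2:**
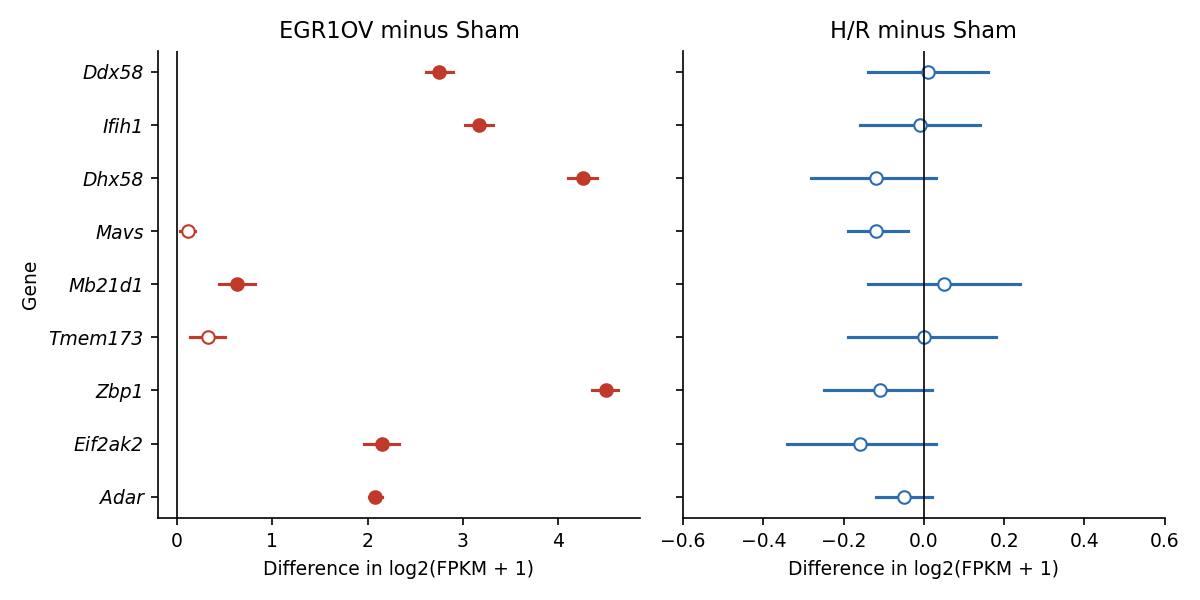
Difference in log2(FPKM + 1) from Sham for each sensor gene, with EGR1OV on the left and H/R on the right, each panel on its own axis. Points are the limma estimates, bars the 95% confidence intervals, and filled points the genes called. In EGR1OV 7 of 9 are filled, and in H/R none is, with every estimate between -0.16 and 0.05.

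The EGR1OV and H/R libraries were also set against each other, a test of the difference between the changes. The count was again 7 of 9 sensors called higher and none lower, against 11.9% and 6.94% of all genes tested. Dhx58 and Zbp1, which passed the filter on low values only through their EGR1OV libraries, are in that count. Their calls carry no weight of their own. Zbp1 differed by 4.61 ± 0.059 on the log2 scale, Dhx58 by 4.38 ± 0.0689, Ifih1 by 3.18 ± 0.0667 and Ddx58 by 2.74 ± 0.0649 (SE; the highest limma adjusted p of the 4 was 1.12e-09). For the genes that are low in H/R this scale understates the difference, and limma voom on the recovered reads gave 8.10 for Zbp1 and 6.55 for Dhx58. Mavs differed by 0.23 and Tmem173 by 0.32, both under the 1.3-fold threshold. This comparison and the one with Sham share the EGR1OV libraries.

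Sham replicate 2 was the highest Sham library for 5 of the 9 sensors. It held Ddx58 at 9.14 FPKM and Eif2ak2 at 11.4 FPKM, and also Isg15, an interferon-stimulated ubiquitin-like protein, at 7.59 FPKM where the other Sham libraries had 4.02 and 2.96. Leaving it out changed no call among the sensors in any of the 3 comparisons, and among the listed partner genes it moved the H/R calls from 5 to 7.

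Genes that act with the sensors were read from 6 lists, written with earlier results of these data known. Of 90 genes tested in them, 33 were higher and 3 lower in EGR1OV than in Sham, where 9.87% and 6.51% of all genes tested were. These are 36.7% and 3.33% of the listed genes. After H/R 2 of the 90 were higher (2.22%) and 3 lower (3.33%), near the 1.60% and 2.65% of all genes. Ddx60, Ifnb1, Il6 and Tnf passed the filter on low values only through their EGR1OV libraries, so their calls carry no weight of their own, and without them the counts in EGR1OV were 29 higher and 3 lower of 86. The RNA sensing partners had 5 of 20 higher (25%, against 9.87% of all genes) and 1 lower, with a median log2 change of 0.12. Without Ddx60 it was 4 of 19. Ddx60, a helicase that aids RIG-I, was at 0.107 ± 0.00837 FPKM in Sham and 11.1 ± 0.172 in EGR1OV (SD, n = 3). The ubiquitin ligases that activate RIG-I rose as well, Trim25 from 7.72 ± 0.937 to 44.5 ± 2.78 FPKM and Rnf135 from 5.62 ± 0.720 to 31.4 ± 2.02. The member that fell was Prkra, an activator of PKR, from 12.0 ± 0.229 to 8.95 ± 1.03 FPKM.

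Of the DNA sensing partners, 6 of 22 tested were higher (27.3%, against 9.87% of all genes) and none lower, with a median of 0.10. Irf7, the transcription factor that amplifies interferon production, went from 0.823 ± 0.185 FPKM in Sham to 223 ± 5.07 in EGR1OV (log2 change 6.95 ± 0.0752, limma adjusted p = 1.38e-11). Ifi204, a DNA-binding protein of a family with near-identical copies whose reads may be split, was at 1.21 ± 0.253 and 64.3 ± 3.17 FPKM. Ikbke, a kinase related to TBK1, was at 2.82 ± 0.330 and 8.40 ± 0.394 FPKM. Tbk1 itself was at 12.6 ± 0.390 and 17.1 ± 0.560 FPKM, a log2 change of 0.41.

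Of the genes that clear self nucleic acid, 5 of 16 tested were higher (31.2%, against 9.87% of all genes) and 2 lower (12.5%, against 6.51%), with a median of 0.12. Pnpt1, a mitochondrial exoribonuclease, rose from 9.68 ± 0.276 to 29.9 ± 1.23 FPKM, and Samhd1, a dNTP hydrolase, from 8.71 ± 0.432 to 21.3 ± 0.837. Rnaset2b, a lysosomal RNase with a near-identical copy in Rnaset2a, was at 12.3 ± 1.06 and 33.8 ± 0.865 FPKM. The genes that fell were Adarb1, a second RNA editing enzyme, from 2.08 ± 0.0411 to 1.35 ± 0.227 FPKM, and Pld4, a nuclease known from immune cells, from 1.02 ± 0.106 to 0.378 ± 0.208.

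**Figure D3:**
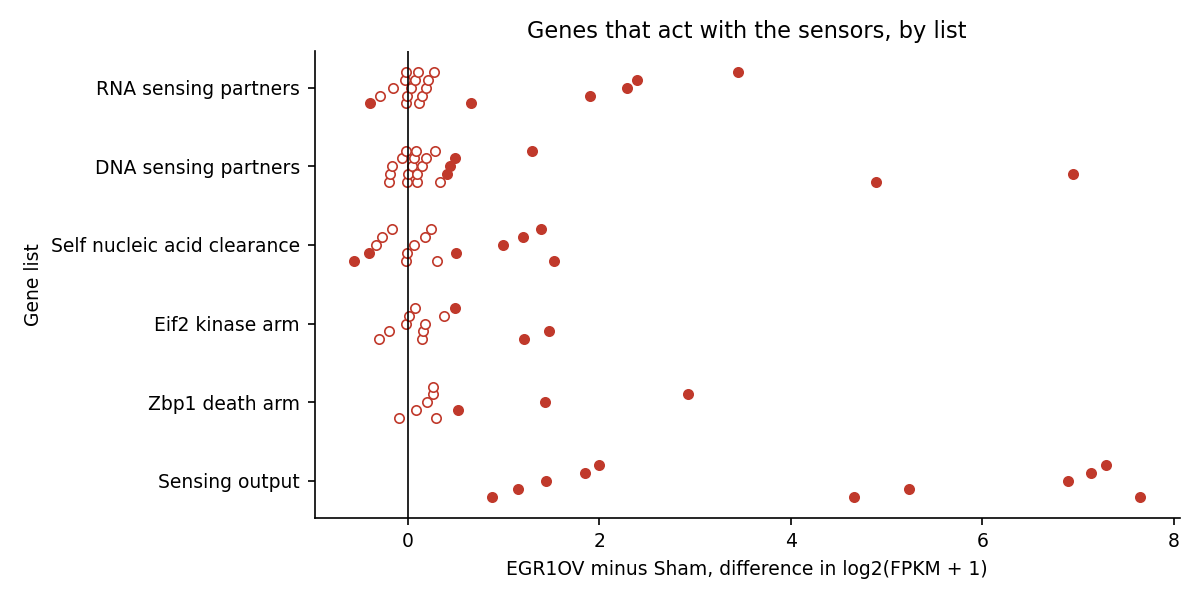
Difference in log2(FPKM + 1) between EGR1OV and Sham for each tested gene of the 6 lists. Each point is a gene, filled where it was called, and points are spread vertically only to keep them apart. In most lists the open points lie near 0, while all 11 genes tested of the sensing output are filled.

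Of the 12 genes listed for the eIF2 kinase arm, to which PKR belongs, 3 rose in EGR1OV (25%, against 9.87% of all genes). The same 3 fell in H/R (25%, against 2.65%). The list also holds the other eIF2 kinases. Ddit3, which encodes the stress factor CHOP, stood at 23.3 ± 0.693 FPKM in Sham, 18.4 ± 0.846 FPKM after H/R and 66.8 ± 1.94 FPKM after overexpression. In the same order Atf3 was at 5.36 ± 0.537, 3.77 ± 0.457 and 13.7 ± 0.682 FPKM, and Trib3, a pseudokinase induced by CHOP, at 17.0 ± 1.05, 11.2 ± 1.18 and 24.2 ± 0.114. Atf4, the transcription factor upstream of Ddit3, was at 186 ± 4.16, 165 ± 2.15 and 184 ± 3.28 FPKM and was called in neither comparison. These genes also answer to the other eIF2 kinases, and which kinase, if any, was active was not tested.

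In the death arm of Zbp1, 3 of 9 genes tested were higher in EGR1OV (33.3%, against 9.87% of all genes) and none lower. Mlkl, which carries out necroptosis, went from 5.67 ± 0.722 to 49.7 ± 0.950 FPKM (log2 change 2.93 ± 0.0739, limma adjusted p = 1.89e-09). Ripk3, the kinase that activates MLKL, went from 6.01 ± 0.145 to 9.13 ± 0.328 FPKM, and Gsdmd, a pore-forming protein, from 1.56 ± 0.0908 to 5.95 ± 0.817. After H/R none of the 9 was called.

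The sensing output had 11 of 11 genes tested higher in EGR1OV, where 9.87% of all genes tested were. The median log2 change was 4.66, against 0.017 over all genes tested. Of these, Ifnb1, Il6 and Tnf had to differ to pass the filter, which leaves 8 of 8, and Ifna4, Ifnl2 and Ifnl3 were too low to be tested. Ifnb1, which encodes interferon beta, was listed at 0 in all 6 Sham and H/R libraries and at 3.05, 3.02 and 1.90 FPKM in EGR1OV. Isg15 was at 4.86 ± 2.42 FPKM in Sham and 869 ± 29.5 in EGR1OV, Ifit1 at 0.536 ± 0.188 and 213 ± 3.19, and the chemokine Ccl5 at 1.69 ± 0.271 and 541 ± 42.8. After H/R 2 of the 11 were called higher (1.60% of all genes were), and leaving out Sham replicate 3 or H/R replicate 2 left 1. Cxcl10, an interferon-stimulated chemokine, was at 6.13 ± 0.424 FPKM in Sham and 9.18 ± 0.517 in H/R (log2 change 0.51 ± 0.0482, limma adjusted p = 0.000515), and Nfkbia, an NF-kB inhibitor that NF-kB induces, was at 35.1 ± 1.74 and 43.1 ± 2.14.

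The genes whose pattern was most like that of a sensor were found for the 4 sensors with the largest change, by the root mean square difference, over 9 libraries, of log2(FPKM + 1) relative to Sham. Nearest to Zbp1 were Oas1g (0.09) and Trim30d (0.10), both from families of similar copies. Nearest to Dhx58 were Oas3 and Cxcl11 (0.11 each). Irgm1 (0.09) was among the nearest to Ifih1, and Rassf10 and Samd9l (0.07 each) were nearest to Ddx58. Oas1g, Trim30d, Oas3, Cxcl11 and Rassf10 averaged under 0.5 FPKM in Sham and in H/R. They passed the filter on low values only through EGR1OV, so their likeness carries no weight of its own. Cxcl11 is annotated as a polymorphic pseudogene. The log2(FPKM + 1) scale also shrinks the change of low genes. In mean FPKM, Rassf10 went from 0.356 in Sham to 8.04 in EGR1OV, and Ddx58 from 8.03 to 59.7.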

How the data were processed

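FPKM values of each library, unpooled, were deposited by the authors in 1 table. The submitters' notes name HISAT2 2.1.0, Bowtie2 2.2.3, TopHat2 and the build mm9, with no roles, yet 94.6% of gene positions equal GENCODE M21 (GRCm38), so coordinates are given as GRCm38. Exon lengths from GENCODE M21 turned the FPKM steps into reads, except for Tmem173. Its length was set at 2302 bases, the shortest that made all 9 of its values whole reads, and its voom results rest on that length. Of 162952 values of 1 to 1000 reads, 94.0% were whole within 0.02 reads, which gave the depth. Read numbers near the floor of 3 reads carry counting error.

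Values were tested as log2(FPKM + 1) in 1 limma fit (3.58.1, R 4.3.3, eBayes with trend) over all 9 libraries and the 13985 genes that averaged 0.5 FPKM or more, two-sided, and the code was tested on simulated data. The sensors and lists were chosen with earlier results of these data known. Named genes are the sensors and, per list, up to 3 called genes with the largest change in EGR1OV and up to 2 in H/R (at least 1 FPKM in the higher group). Prkra, Tbk1, Adarb1, Pld4, Ifnb1, Il6, Tnf, Atf4 and the markers given singly were named after their values were seen, as was Isg15 in Sham replicate 2. A gene that the rule on similar patterns picks is not reported here. Promoter windows are from RefSeq (GRCm38.p6), searched with Python 3.11.15. The search patterns and the wider window were chosen with the values known, the latter after the first search.

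Alternatives were a pseudocount of 0.1, no filter, quantile normalization, median-ratio scaling, the replicate number as a block, only the groups compared, limma without trend, voom on the recovered reads, other fold thresholds and each library left out.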

Additional observations from a re-analysis of the deposited data

How the results depend on the processing

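The number of sensors called stayed within 1.5 times the reported 7, 0 and 7 (EGR1OV against Sham, H/R against Sham, EGR1OV against H/R) under every alternative run. With no fold threshold 9, 0 and 9 were called and at 2-fold 6, 0 and 6, and leaving out single libraries gave 7, 0 and 7 to 8. With the replicate block it was 7, 0 and 7, and the block changed no count of calls. Equal replicate numbers showed no pairing (correlations of deviations from -0.02 to 0.06). Tmem173 in EGR1OV against H/R passed the call with voom (0.38, adjusted p = 0.00223) and without H/R replicate 1 (0.40, adjusted p = 0.00194), and its adjusted p ran from 0.00194 to 0.0717 over the alternatives. With no fold threshold the listed genes called numbered 61 in EGR1OV against Sham (36 reported), 15 in H/R against Sham (5 reported) and 67 in EGR1OV against H/R (37 reported). At 2-fold none of the H/R calls was left (0), and with voom they numbered 8. These thresholds change which genes can be called by construction, and for voom the cause was not tested. The shares of all genes called under these alternatives are not given here, so the counts of sensors and listed genes cannot be set against them. Depth limits Zbp1 and Dhx58 outside EGR1OV, where Zbp1 fell to 3 reads in 1 library.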
